A study of Mus musculus with 4 samples.

Results

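The 50 genes described here encode the DNA replication machinery and the regulators of entry into S phase, and were chosen by name: the subunits of the MCM2-7 helicase, the factors that load and start it, the clamp, polymerases and other fork proteins, the enzymes of deoxynucleotide supply, the G1/S cyclins, kinases and E2F factors, and chromatin assembly factor 1. Of these 50, 44 had a value among the 9779 genes with a value, and *Rfc4*, *Pole*, *Pole2*, *Fen1*, *Rrm1* and *Tyms* were not analysed here. RNA-Seq had been performed on LF2 cells, a female mouse ESC line of strain 129/J, which were grown on feeder cells, passed without them and then treated for 24 hr. The 4 groups, with 1 library each, were PBS+DMSO, PBS+GSK-J4, AA+DMSO and AA+GSK-J4, where GSK-J4 is a small molecule inhibitor of JmjC histone demethylases given at 10 μM, AA is L-ascorbic acid given at 50 μg/ml, and PBS and DMSO stand for cells without AA and without GSK-J4. With 1 library per group no test was run, and every difference is one between libraries without a replicate of its group. A model of all 4 libraries that takes AA as a block was not run, since it would read any difference in response between cells without and with AA as error.

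In G1, the origin recognition complex together with Cdc6 and Cdt1 loads the MCM2-7 ring onto origins. Cyclin-dependent kinases driven by D-type and E-type cyclins then inactivate the retinoblastoma protein, release E2F factors and allow Cdc45 and the GINS complex to turn the ring into an active helicase. Mouse ESCs have a short G1 phase and are known for high Cyclin E and Cdk2 activity and for replication genes that are expressed through most of the cycle.

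The depth of the libraries is not known, since the files give FPKM (a fragment count scaled to transcript length and to the mapped fragments of the library) and no counts, and low values did not fall on steps that would give the relative depth. The FPKM summed over all genes ranged from 271205 to 360621 and was lower in both GSK-J4 libraries. The 10 ESC markers listed for this check all had a value and summed to 2221 and 2001 FPKM in the DMSO libraries without and with AA and to 1374 and 1247 in the GSK-J4 libraries. Their median log2 ratios of GSK-J4 to DMSO were -0.65 and -0.64, with 10 and 9 of the 10 below 0. In contrast, 5 of 14 feeder fibroblast markers had a value and summed to 15.2 and 14.8 FPKM with DMSO and to 22.4 and 20.8 with GSK-J4. Of 7 primitive endoderm markers, 1 (*Sox7*) had a value, at most 1.61 FPKM. The part of the ESC and feeder markers in the results below was not tested, and fewer cells in S phase and less RNA per cell cannot be told apart in bulk RNA.

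FPKM values are per length, so levels can be set beside each other between genes. In PBS+DMSO the 44 genes had a median level of 55.3 FPKM, against 8.23 for all genes, and ran from 5.71 for *Orc2* to 373 for *Cdk4*, the kinase partner of D-type cyclins. Of the exon bases of *Cdk4*, 19.7% are shared with another annotated gene. The MCM2-7 subunits lay between 88.7 and 201 FPKM, the clamp and its loader between 45.0 and 161, and the GINS complex and its partners between 10.3 and 68.2. *Cdk4* had 9.11 times the level of *Cdk2*, the kinase partner of E-type cyclins, and *Ccne1* had 9.54 times that of *Ccne2*. The genes were therefore mostly well expressed: 39 of 44 belonged to the top 3 of 10 equal bins (deciles) of genes by mean level.

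**Figure D1:**
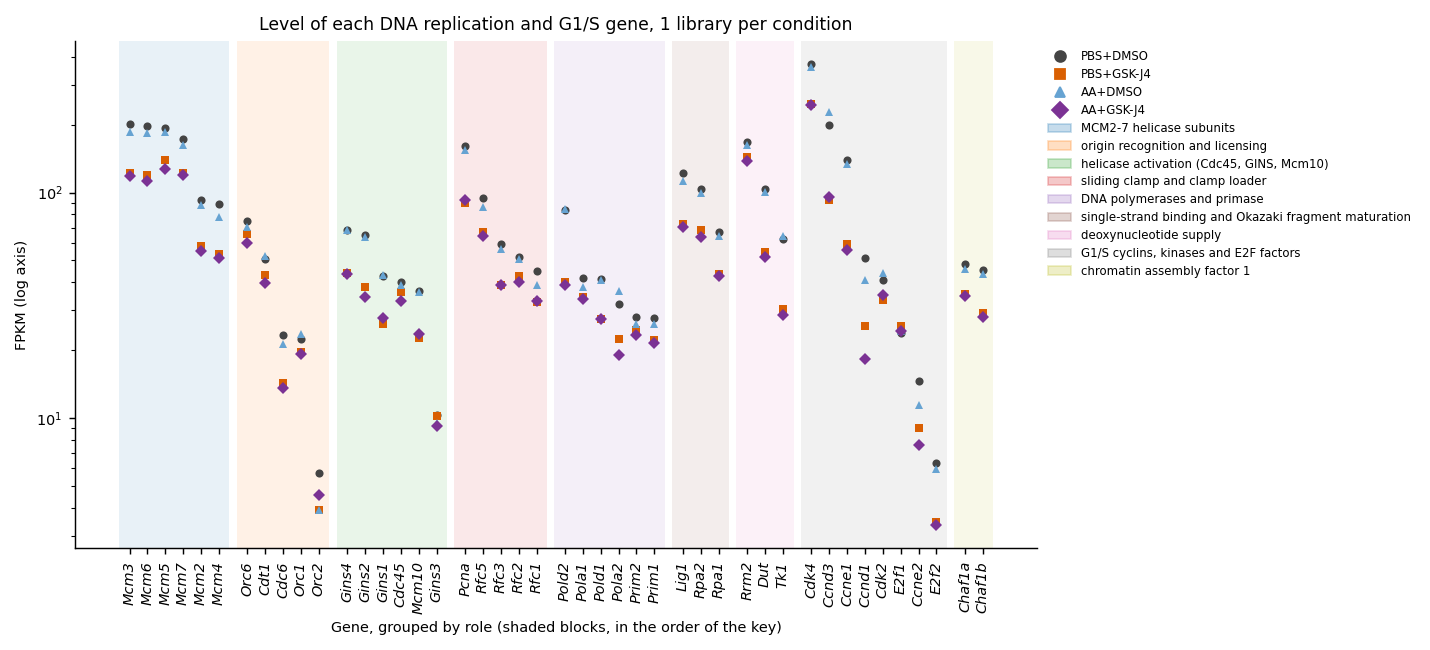
Each column is 1 gene, grouped by role (shaded), and the y axis is its level in FPKM on a log axis; the 4 symbols are the 4 libraries, 1 per condition, so there are no error bars. The highest gene is *Cdk4* at 373 FPKM in PBS+DMSO. In 41 of 44 genes both GSK-J4 libraries sit below both DMSO libraries, against 50.3% of all genes, which are of any level.

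Many replication genes are known E2F targets, so the proximal promoters were searched for E2F-type motifs, in a window of 300 bases (250 before and 50 after the RefSeq start, GRCm38.p6). The letters searched on both strands were TTCCCGC as the first motif, then its variant TTCGCGC, followed by the variant TTGCCGC and, as the last of the 4, TTGGCGC. Of the 44 genes with a value, 36 matched a promoter, and 20 of them (55.6%) held at least 1 motif, against 20.7% of 7495 genes with a value and 10.9% of all 27025 genes with a promoter. Of 29 mitosis and spindle genes with a promoter, 10.3% held one. The CCAAT motif, counted the same way, was present in 66.7% of the 36 promoters, 43.1% of the promoters of genes with a value and 75.9% of the mitosis and spindle promoters. A match describes letters and is not evidence of binding. The lack of an E2F-type match covers only the 4 motifs searched in this window and does not show that binding is absent.

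Upstream stretches of 7 promoters with a match are shown first, chosen to cover the helicase, its loader, the polymerase, the single-strand binding protein, a kinase and chromatin assembly factor 1, and then those of the 4 genes with a value at least 2-fold lower after GSK-J4 in both comparisons described below, none of which held a match. Bases annotated as exon were left out, capitals mark the motif letters, which in *Mcm6* and *Mcm5* include pairs of overlapping matches, and each stretch runs 5′ to 3′ on the strand of the gene. The downstream end of the window lay in a GENCODE transcript of the gene for 42 of 49 windows, but not for those of *Mcm6* and *Mcm5*.
Mcm6 (chr1:128359706-128359885, minus strand): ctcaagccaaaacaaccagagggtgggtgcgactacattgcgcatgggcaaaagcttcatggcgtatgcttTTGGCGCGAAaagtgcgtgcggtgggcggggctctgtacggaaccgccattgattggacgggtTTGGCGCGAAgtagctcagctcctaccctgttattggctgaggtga
Mcm5 (chr8:75109329-75109508, plus strand): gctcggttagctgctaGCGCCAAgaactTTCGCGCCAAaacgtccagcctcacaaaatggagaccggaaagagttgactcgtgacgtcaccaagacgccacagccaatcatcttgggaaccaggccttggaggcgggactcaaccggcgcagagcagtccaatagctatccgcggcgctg
Cdc6 (chr11:98907982-98908150, plus strand): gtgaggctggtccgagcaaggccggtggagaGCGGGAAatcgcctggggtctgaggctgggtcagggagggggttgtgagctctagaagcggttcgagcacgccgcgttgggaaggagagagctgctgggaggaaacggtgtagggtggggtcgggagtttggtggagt
Pola1 (chrX:93632156-93632335, minus strand): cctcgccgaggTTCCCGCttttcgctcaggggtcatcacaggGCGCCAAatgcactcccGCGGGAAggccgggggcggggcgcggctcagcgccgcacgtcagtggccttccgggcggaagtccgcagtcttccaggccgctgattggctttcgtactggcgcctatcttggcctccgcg
Rpa2 (chr4:132768180-132768331, plus strand): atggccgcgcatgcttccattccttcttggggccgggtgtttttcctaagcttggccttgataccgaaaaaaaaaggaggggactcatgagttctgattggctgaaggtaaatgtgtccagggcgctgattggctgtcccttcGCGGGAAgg
Cdk2 (chr10:128705052-128705179, minus strand): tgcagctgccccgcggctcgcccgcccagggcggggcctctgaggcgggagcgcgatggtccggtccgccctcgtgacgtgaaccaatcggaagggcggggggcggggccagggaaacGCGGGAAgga
Chaf1a (chr17:56040236-56040415, plus strand): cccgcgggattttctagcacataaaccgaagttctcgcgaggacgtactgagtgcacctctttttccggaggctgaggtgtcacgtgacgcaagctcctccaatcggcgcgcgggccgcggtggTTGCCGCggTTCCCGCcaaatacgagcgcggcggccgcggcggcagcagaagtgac
Ccne1 (chr7:38107535-38107670, minus strand): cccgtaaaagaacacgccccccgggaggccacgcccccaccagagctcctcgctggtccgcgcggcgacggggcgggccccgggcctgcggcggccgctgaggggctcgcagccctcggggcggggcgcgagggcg
Pold2 (chr11:5878293-5878436, minus strand): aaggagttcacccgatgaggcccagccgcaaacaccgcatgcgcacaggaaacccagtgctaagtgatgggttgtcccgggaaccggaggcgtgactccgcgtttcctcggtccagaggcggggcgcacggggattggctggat
Tk1 (chr11:117826093-117826194, minus strand): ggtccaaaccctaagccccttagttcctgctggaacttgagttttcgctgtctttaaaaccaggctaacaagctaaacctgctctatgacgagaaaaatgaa
Ccnd3 (chr17:47504871-47505050, plus strand): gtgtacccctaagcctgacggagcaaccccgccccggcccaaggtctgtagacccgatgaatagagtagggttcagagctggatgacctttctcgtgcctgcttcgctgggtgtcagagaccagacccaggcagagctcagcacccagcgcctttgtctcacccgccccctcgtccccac

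To ask how the inhibitor altered this gene set, GSK-J4 was compared with DMSO without AA and with AA, 2 comparisons that share no library. Ratios are log2 ratios of FPKM + 1. Nearly every gene was lower after GSK-J4: 43 of 44 had a ratio below 0 in each comparison and 42 in both. Once the libraries were scaled to the same total, 30 of 44 were below 0 in both. The share of all genes below 0 was not computed. Medians of all genes were also below 0, and those of highly expressed genes were lower, as described below. Below the median of all genes were 41 of 44 in each comparison. The median ratio was -0.59 without AA (SD 0.29 over the 44 genes) and -0.57 with AA (SD 0.33), against -0.17 and -0.16 for all genes tested, which is 0.42 lower than all genes in both comparisons. In 41 of 44 genes both GSK-J4 libraries lay below both DMSO libraries, against 50.3% of all genes, and the exceptions were *Orc2*, *Gins3* and *E2f1*. That share is over genes of any level and on unscaled FPKM. The share among genes of like level was not computed, so this count does not set the 44 genes apart from other well expressed genes. The FPKM summed over the 44 genes was 3623 and 3501 in the DMSO libraries without and with AA, against 2356 and 2269.7 in the GSK-J4 libraries, or 1.005% and 1.02% against 0.855% and 0.837% of the sum of all genes.

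Most differences were under 2-fold. At least 2-fold lower were 4 of 44 genes without AA (3.5% of all genes tested) and 5 of 44 with AA (3.38% of all genes), and none was at least 2-fold higher (4.96% and 4.13% of all genes). Under scaling to the same total the shares of all genes were 1.04% and 1.08% lower against 8.74% and 6.87% higher, with 0 of the 44 genes lower. The genes past 2-fold in both comparisons were *Ccne1*, *Ccnd3*, *Tk1* and *Pold2*, with *Ccnd1* just inside without AA (-0.99) and past it with AA (-1.13). At 1.5-fold, 22 of 44 genes were lower without AA, against 19.3% of all genes, and 22 with AA, against 17.8%. In both comparisons 21 were so, and the share of all genes that were so in both was not computed. Among all genes of the highest decile by level, which held 17 of the 44, the median ratios were -0.59 and -0.53, where 1.5-fold is 0.58. All 21 stayed below 0, and below the median of all genes, under upper quartile scaling and scaling to the same total. All 5 genes of the 2-fold calls fell inside 2-fold under both of these scalings.

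Ratios depended on expression level, and the gene set is highly expressed. In all genes the median ratio went from 0.30 in the lowest decile by mean level to -0.59 in the highest without AA, and from 0.26 to -0.53 with AA. Against the median of their own decile, the 44 genes had a median difference of -0.12 without AA and -0.11 with AA, with 26 and 27 genes below it, 25 below in both and 16 above in both. The median of the whole set was thus close to that of other genes of like level, while single genes stood well to either side. Furthest below their decile in both comparisons were *E2f2* (-0.71 and -0.67), *Ccnd1* (-0.52 and -0.83), *Ccne1* (-0.63 and -0.71) and *Tk1* (-0.55 and -0.72), and furthest above were *E2f1* (0.46 and 0.29), *Orc6* (0.41 and 0.30) and *Rrm2* (0.37 and 0.31).

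**Figure D2:**
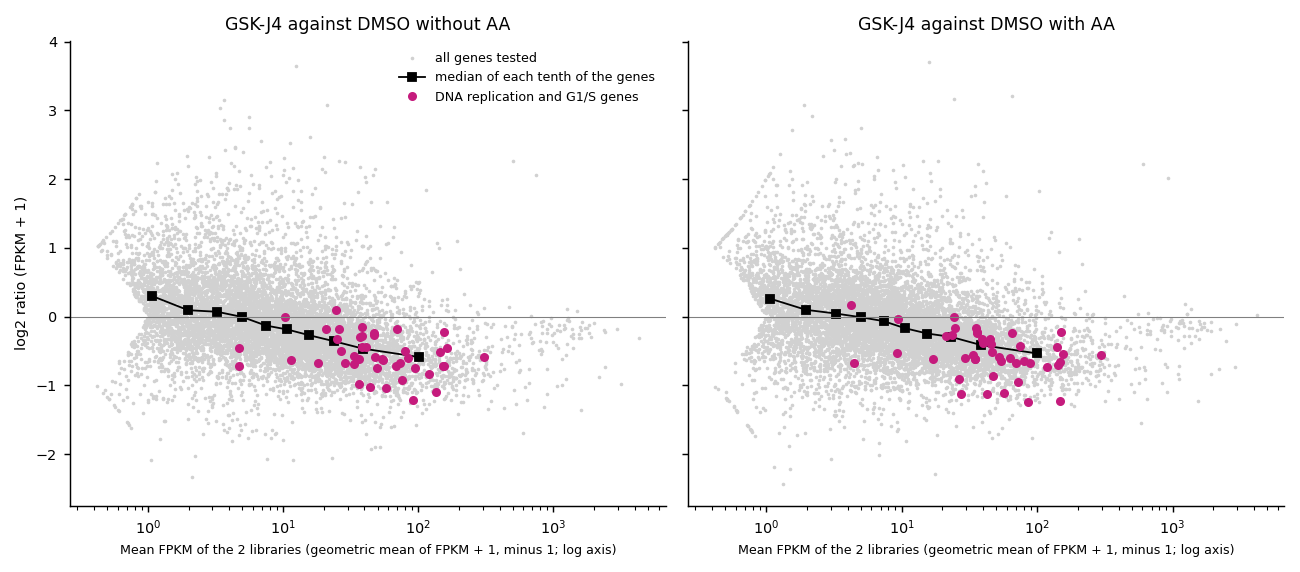
Each point is a gene, with its mean level in FPKM on a log x axis and its log2 ratio of FPKM + 1 (GSK-J4 over DMSO) on the y axis, without AA on the left and with AA on the right; squares are the medians of deciles of the genes. The squares slope from 0.30 to -0.59 and from 0.26 to -0.53, and most of the 44 colored genes lie in the right part around them.

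Of the G1/S regulators, the cyclin genes *Ccne1* and *Ccnd3* had the lowest ratios of the whole set in both comparisons. *Ccne1* (chr7:38097984-38107534, minus strand, GRCm38) encodes Cyclin E1, which drives Cdk2 at the start of S phase. Its level was 139 FPKM with DMSO and 59.3 with GSK-J4 in cells without AA, and 134 and 55.7 in cells with AA, with ratios of -1.22 and -1.25, the lowest of the 44 in both comparisons. *Ccnd3* (chr17:47505051-47599691, plus strand), a D-type cyclin, had 200.1, 92.9, 227 and 96.1 FPKM in the same order of libraries (-1.10 and -1.23). *Ccnd1* (chr7:144929931-144939925, minus strand), another D-type cyclin, had 51.5, 25.5, 41.0 and 18.2 FPKM. This order of libraries, DMSO then GSK-J4 without AA and DMSO then GSK-J4 with AA, is kept for every gene below. In each of these cyclins both treated libraries stood under 0.5 of their DMSO partner, at 0.426 and 0.417 for *Ccne1*, 0.464 and 0.423 for *Ccnd3* and 0.495 and 0.444 for *Ccnd1*.

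The partner kinases of these cyclins had smaller ratios. *Cdk4* had -0.58 and -0.56 and *Cdk2* -0.29 and -0.32. The level of *Cdk2* is the sum of 2 coding sequence groups, with ratios of -0.46 and -0.28 in 1 and 0.45 and -0.41 in the other. *Ccne2*, the second E-type cyclin, had 14.6, 9.04, 11.4 and 7.59 FPKM, so *Ccne1* went from 9.54 to 6.56 times *Ccne2* in cells without AA and from 11.7 to 7.34 times with AA. Of the E2F factors, *E2f2*, an activator, had 6.31, 3.45, 5.92 and 3.34 FPKM (-0.72 and -0.67), whereas *E2f1*, the founding activator, had 23.9, 25.7, 24.3 and 24.2 FPKM, the highest ratio of the 44 genes without AA (0.10) and -0.00 with AA. The level of *E2f1* is the sum of 2 coding sequence groups with different orders, 1 with 16.6, 10.7, 12.8 and 17.0 FPKM and the other with 7.25, 15.03, 11.5 and 7.20. The order of the libraries in 1 group was the reverse of that in the other, and only the sum is used here.

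**Figure D3:**
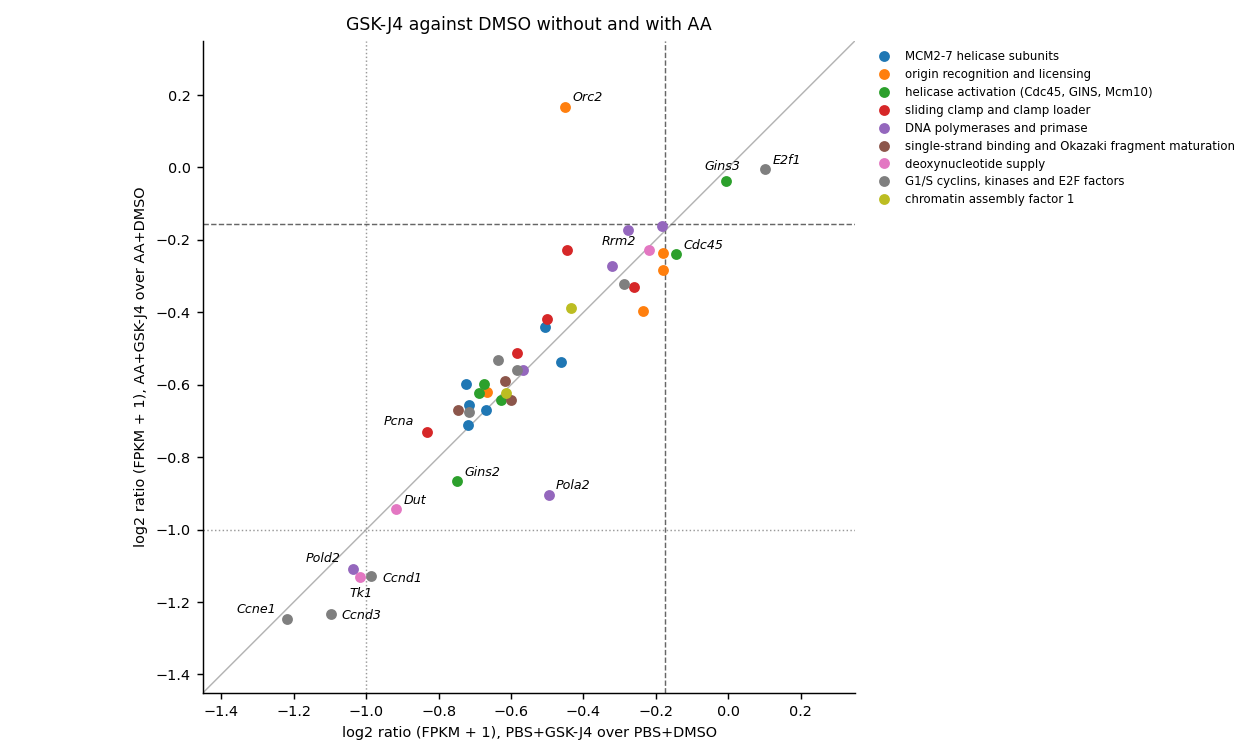
Each point is 1 of the 44 genes, colored by role; the x axis is the log2 ratio of FPKM + 1 for GSK-J4 over DMSO without AA and the y axis that with AA, dashed lines are the medians of all genes (-0.17 and -0.16), dotted lines mark 2-fold and the diagonal marks equal ratios. The cyclins *Ccne1*, *Ccnd3* and *Ccnd1* lie at the lower left with *Tk1* and *Pold2*, *E2f1* and *Gins3* at the upper right, and *Orc2* and *Pola2* far from the diagonal.

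The enzymes of deoxynucleotide supply had the lowest median of the roles, -0.92 without AA and -0.94 with AA, over 3 of 5 genes. *Tk1* (chr11:117815526-117826092, minus strand), the thymidine kinase of the salvage pathway, had 62.5, 30.3, 63.9 and 28.6 FPKM (-1.02 and -1.13). *Dut*, which removes dUTP, had 103.8, 54.5, 100.3 and 51.7 FPKM (-0.92 and -0.94). The level of *Dut* is the sum of 2 coding sequence groups, with ratios of -0.95 and -0.58 in 1 and -0.77 and -2.15 in the other. *Rrm2*, the small subunit of ribonucleotide reductase, had 168, 144, 163 and 139 FPKM (-0.22 and -0.23). The role was split: the ratio of *Rrm2* to *Tk1* within a library was 2.69 and 2.55 in the DMSO libraries and 4.74 and 4.85 in the GSK-J4 libraries. After scaling to the same total *Rrm2* was above 0 and *Tk1* below 0 in both comparisons.

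The 6 MCM2-7 subunits had similar ratios, with medians of -0.69 and -0.63. *Mcm6* had 198, 119.6, 184 and 112 FPKM (-0.72 and -0.71), the lowest mean ratio of the 6. *Mcm2* had 93.1, 58.2, 88.1 and 55.0 FPKM, and *Mcm3* 201, 122, 186 and 118. *Mcm4* had 88.7, 53.3, 78.0 and 51.2 FPKM. Each of these 4 was at least 1.5-fold lower in both comparisons, where 19.3% and 17.8% of all genes were so in the single comparisons. *Mcm7*, with 173, 122, 163 and 120.1 FPKM, had the mean ratio nearest 0 (-0.51 and -0.44), and *Mcm5* lay beside it (-0.46 and -0.54). The highest of the 6 subunits had 2.26 to 2.63 times the level of the lowest in every library. All 6 stayed below 0 under both scalings, and they had a median difference of -0.10 and -0.09 against its decile.

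The factors that load this ring had ratios nearer 0, with medians of -0.24 and -0.28 over 5 genes. *Cdc6*, the loader ATPase, stood apart with 23.3, 14.3, 21.4 and 13.6 FPKM (-0.67 and -0.62), both treated libraries well below both controls. *Cdt1*, its partner in loading, had -0.24 and -0.40, *Orc1* -0.18 and -0.28, and *Orc6* -0.18 and -0.24. *Orc2*, the least expressed gene of the set, had 5.71, 3.91, 3.92 and 4.53 FPKM (-0.45 and 0.17), with its highest value in PBS+DMSO and no ordering by GSK-J4. Of its exon bases, 29.8% are shared with another annotated gene. The role's median, averaged over both comparisons, turned from -0.26 to 0.00 under upper quartile scaling and 0.09 under scaling to the same total. Within a library, *Cdt1* had 0.633 and 0.642 times the level of *Gmnn*, which encodes the Cdt1 inhibitor geminin, in the DMSO libraries, and 1.07 and 0.945 times in the GSK-J4 libraries. *Gmnn* was named for this ratio after its values were seen.

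Among the factors that turn the ring into a helicase, the same 4 of 6 were at least 1.5-fold lower in each comparison, against 19.3% and 17.8% of all genes. *Gins2* had 64.9, 38.2, 63.8 and 34.5 FPKM (-0.75 and -0.87), *Gins4* had 68.2, 43.8, 68.2 and 43.4, and *Gins1* had 42.8, 26.2, 43.1 and 27.7. *Mcm10*, which binds the ring at firing, had 36.8, 22.7, 36.1 and 23.5 FPKM (-0.68 and -0.60). *Gins3* had ratios near 0, unlike the other subunits of its own 4-part complex, with 10.3, 10.2, 9.48 and 9.21 FPKM (-0.01 and -0.04), so the highest GINS subunit went from 6.64 to 4.28 times the lowest in cells without AA and from 7.20 to 4.71 times with AA. *Cdc45* had -0.14 and -0.24. Of the exon bases of *Gins2*, 67.3% are shared with another annotated gene, and since the strand of the reads is not given, their reads cannot be told apart.

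At the fork, *Pcna*, the sliding clamp, had 161, 90.1, 154 and 92.5 FPKM (-0.83 and -0.73), lower than the loader subunits, of which *Rfc2* had 51.6, 42.9, 50.6 and 40.0 FPKM (-0.26 and -0.33) and the other three ratios between -0.58 and -0.23. *Pold2* (chr11:5872180-5878292, minus strand), the accessory subunit of polymerase delta, had 83.6, 40.2, 84.9 and 38.8 FPKM (-1.04 and -1.11), whereas its catalytic partner *Pold1* had -0.57 and -0.56. The ratio of *Pold1* to *Pold2* was 0.493 and 0.483 in the DMSO libraries and 0.684 and 0.707 in the GSK-J4 libraries. Of the primase and polymerase alpha genes, *Prim2* was nearest 0, with 27.9, 24.5, 26.1 and 23.3 FPKM (-0.18 and -0.16). *Prim1* had -0.32 and -0.27, and *Pola1*, the catalytic subunit, -0.28 and -0.17. *Pola2* differed most between the comparisons in the negative direction, with 32.2, 22.5, 36.5 and 19.0 FPKM (-0.50 and -0.90). Its level is the sum of 2 coding sequence groups, with ratios of -0.49 and -1.33 in 1 and -0.47 and -0.42 in the other. The difference between the comparisons was thus seen in only 1 group. *Prim1*, *Prim2* and *Pola1* were above 0 in both comparisons after scaling to the same total, and *Pold1*, *Pold2* and *Pola2* were below it.

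The single-strand binding and ligation genes were alike. *Lig1*, the ligase that joins Okazaki fragments, had 122, 72.3, 113 and 70.7 FPKM (-0.75 and -0.67). *Rpa1* had 67.1, 43.4, 64.4 and 42.5 FPKM and *Rpa2* 103.9, 68.2, 100.1 and 63.8, both subunits of replication protein A. All 3 were at least 1.5-fold lower in both comparisons, where 19.3% and 17.8% of all genes were so in the single comparisons. In each of the 3 both treated libraries stood below both controls, against 50.3% of all genes, which are of any level. *Chaf1b* of chromatin assembly factor 1, which places histones behind the fork, had 45.5, 29.3, 43.5 and 27.9 FPKM (-0.61 and -0.62), and *Chaf1a* 48.3, 35.5, 45.8 and 34.8 (-0.44 and -0.39), with 52.5% of the exon bases of *Chaf1a* shared with another annotated gene.

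Set against the motif search, the 20 genes with an E2F-type match had a median ratio of -0.49 without AA and -0.48 with AA, and ranged from -0.75 to -0.01 and from -0.71 to -0.04. The 16 without a match had medians of -0.64 and -0.63 and ranged from -1.22 to 0.10 and from -1.25 to 0.17. None of *Ccne1*, *Ccnd3*, *Tk1* and *Pold2*, whose upstream sequences are shown above, held a match in the window. Neither did *E2f1*, at the other end, but its window (chr2:154569377-154569676, minus strand) lay wholly inside the gene annotated by GENCODE. The bases before the annotated start of *E2f1* were thus not searched. The start used for *Tk1* also lay inside the annotated gene, so fewer bases before that gene were searched. *Ccnd3* and *Pold2* each have another promoter window that is not shown, and it held no match either. The promoter of *Ccnd1* was not analysed here. For CCAAT, the 24 genes with a match had medians of -0.49 and -0.48, and the 12 without it -0.60 and -0.62.

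To see whether AA altered the response, the ratios of the same gene were set side by side. The difference between the comparison with AA and that without had a median of 0.00 over the 44 genes and an SD of 0.14. The SD was 0.23 for the 6092 genes between the lowest and highest level of the set. Those genes were not matched by level, whereas 39 of the 44 lay in the top 3 deciles, so the 2 SDs are not of like genes. Of the 44 genes, 41 differed by at most 0.2. The share of all genes that did so was not computed, so this count is not a trait of the set. Across the 44 genes the ratios of the 2 comparisons had a Spearman correlation of 0.91 and a Pearson correlation of 0.90, as a description of genes that are not independent. The exceptions to the limit of 0.2 were *Orc2* (0.62), *Pola2* (-0.41) and *Rfc1* (0.22). For *Pola2* the difference was seen in only 1 of its 2 coding sequence groups.

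AA by itself was compared with PBS in DMSO and in GSK-J4. These ratios are set across 2 tables that the authors may have normalized separately, and they use the same 4 libraries as the GSK-J4 comparisons. The median ratio of the 44 genes was -0.06 in DMSO and -0.05 in GSK-J4, against -0.05 and -0.02 for all genes. None of the 44 was at least 2-fold lower (0.735% of all genes in DMSO and 0.599% in GSK-J4) or at least 2-fold higher (0.565% and 0.512%). Within 0.2 of 0 lay 40 and 41 of 44, and the share of all genes that did so was not computed. The largest ratios with 1 sign in both were those of *Ccnd1* (-0.32 and -0.46) and *Ccne2* (-0.33 and -0.23), with 23.4% and 17.4% of their exon bases shared with another annotated gene. *Ccnd3* had 0.18 and 0.05, so *Ccnd3* went from 3.89 to 5.53 times *Ccnd1* in DMSO and from 3.64 to 5.27 times in GSK-J4. With 1 library each, these values were not tested.

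**Figure D4:**
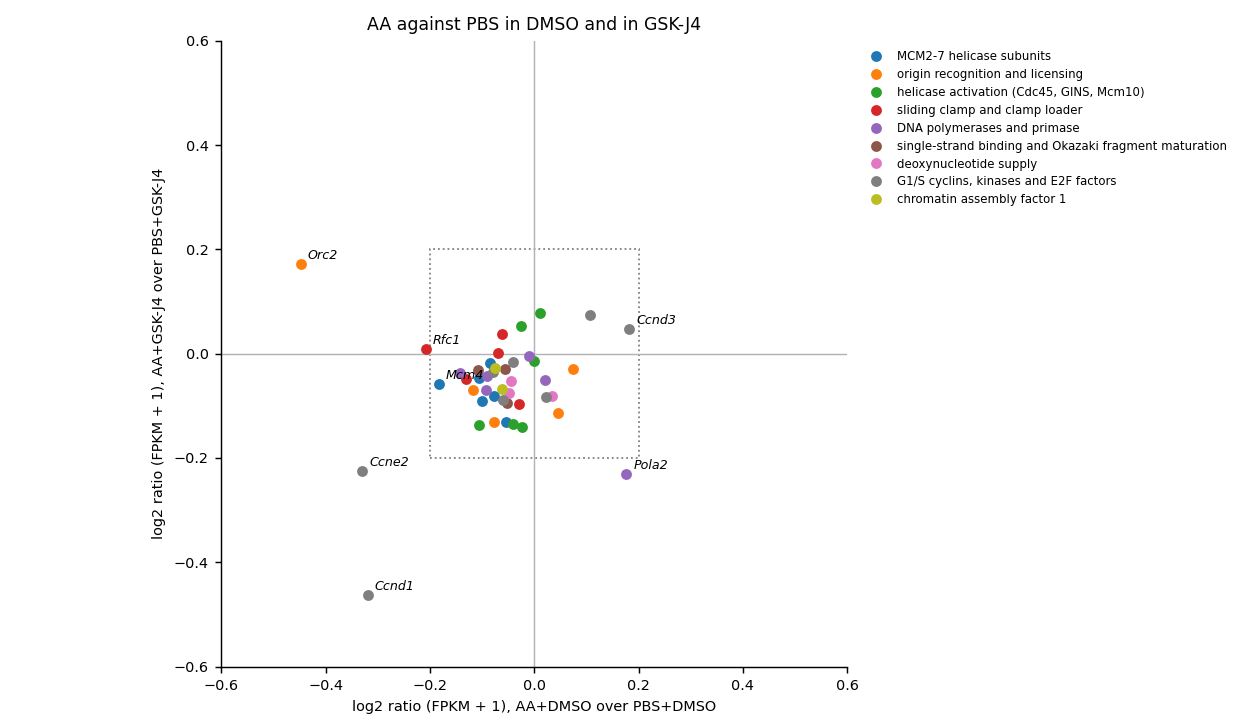
Each point is 1 of the 44 genes, colored by role; the x axis is the log2 ratio of FPKM + 1 for AA over PBS in DMSO, the y axis the same in GSK-J4, and the dotted square marks ratios within 0.2 of 0. Most genes fall in the square, *Ccnd1* (-0.32 and -0.46) and *Ccne2* (-0.33 and -0.23) lie at the lower left, and *Orc2* (-0.45 and 0.17) has opposite signs.

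Other genes of the pathway were read from fixed lists. Of 32 other replication factors, 25 had a value, with medians of -0.52 and -0.40; 2 were at least 2-fold lower without AA and 0 with AA, and 0 were at least 2-fold higher in either. Of 20 other nucleotide synthesis enzymes, 17 had a value, with medians of -0.51 and -0.54, 1 and 0 at least 2-fold lower and 0 higher. Of 10 replication checkpoint genes, 7 had a value, with medians of -0.46 and -0.24 and 0 past 2-fold. Among all genes, 3.5% and 3.38% were at least 2-fold lower and 4.96% and 4.13% at least 2-fold higher. The medians of these lists were below 0, as was that of all genes, though the checkpoint median with AA was 0.07 after scaling to the same total. Against their own deciles the median differences were -0.16 and -0.06 for the other replication factors, 0.03 and -0.02 for the nucleotide synthesis enzymes, and -0.11 and 0.00 for the checkpoint genes.

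The inhibitors of G1/S control differed among themselves after GSK-J4, with *Rb1*, *Cdkn1a* and *Cdkn2b* higher and others lower or near 0. Of 18 other E2F, pocket protein and cyclin genes, 12 had a value, with medians of -0.44 and -0.34; 0 and 1 were at least 2-fold lower and 1, *Rb1*, was at least 2-fold higher in both. *Rb1*, the retinoblastoma protein that holds E2F factors in check, had 10.4, 33.3, 8.25 and 28.1 FPKM (1.59 and 1.65), so it went from 0.434 to 1.30 times *E2f1* in cells without AA and from 0.340 to 1.16 times with AA. Of 7 CDK inhibitor genes, 6 had a value and 5 passed the filter on low values, with medians of -0.04 and 0.08. *Cdkn1a*, which encodes p21, had 24.5, 80.5, 22.5 and 73.6 FPKM (1.67 and 1.67). It had 0.176 and 0.169 times the level of *Ccne1* in the DMSO libraries and 1.36 and 1.32 times in the GSK-J4 libraries. *Cdkn2b*, which encodes p15, had 3.27, 9.62, 3.68 and 7.97 FPKM (1.32 and 0.94), and *Cdkn1b*, which encodes p27, had -0.04 and 0.08. The other CDK inhibitors that passed the filter were lower, with -0.29 and -0.54 for *Cdkn2a* and -0.49 and -0.62 for *Cdkn2d*. *Rbl1*, a pocket protein gene like *Rb1*, had -0.45 and -0.26. These genes other than *Rb1* and *Cdkn1a* were named after their values were seen, and no protein or cell cycle phase was measured in these files.

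**Figure D5:**
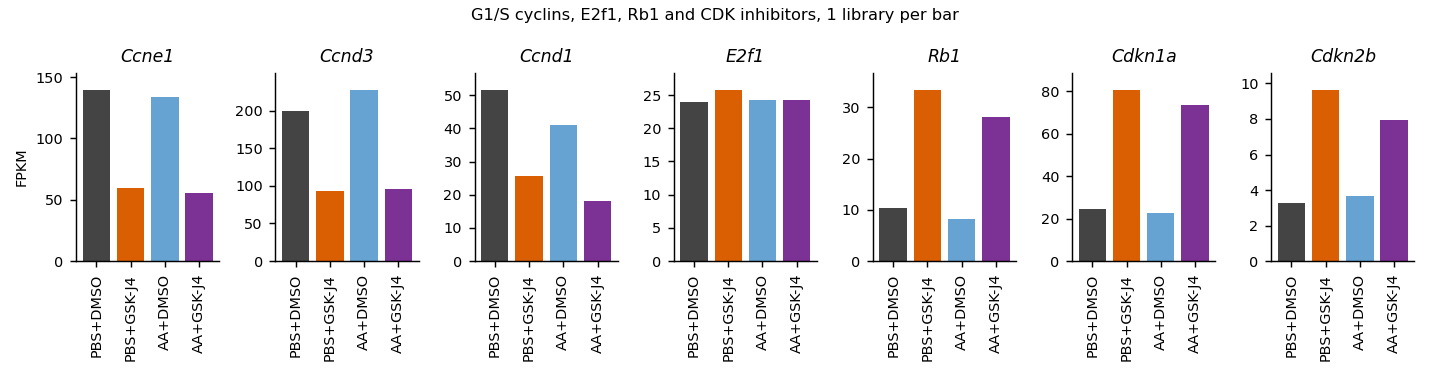
Bars give the level in FPKM of 7 G1/S regulators in the 4 libraries, 1 library per bar and so without error bars, each panel with its own axis from 0. *Ccne1*, *Ccnd3* and *Ccnd1* are lower in both GSK-J4 libraries, *E2f1* stays between 23.9 and 25.7, and *Rb1*, *Cdkn1a* and *Cdkn2b* are higher in both.

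The most similar gene set, mitosis and spindle genes, was lower still. Of 41 such genes, 36 had a value, with medians of -0.77 and -0.66 against -0.59 and -0.57 for the replication and G1/S genes. At least 1.5-fold lower were 28 and 23 of 36, against 22 and 22 of 44 and 19.3% and 17.8% of all genes. At least 2-fold lower were 5 and 4 of 36, against 3.5% and 3.38% of all genes. Against their own decile, the mitosis genes had median differences of -0.30 and -0.26, with 33 and 31 of 36 below, where the replication and G1/S genes had -0.12 and -0.11. *Plk1*, a mitotic kinase, had 81.7, 27.7, 73.5 and 27.2 FPKM (-1.53 and -1.40), and *Prc1*, a spindle midzone protein, had 35.1, 15.9, 34.9 and 14.4 (-1.09 and -1.22). The difference between the gene sets was not tested.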

How the data were processed

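Total RNA of 4 libraries, 1 per condition, had been sequenced as single-end reads. Per the study's methods the authors removed duplicate reads and used TopHat2, Cufflinks2 and CummeRbund, and the submitters' processing notes name TopHat2 and mm10; versions are not given in the sources used here. The authors deposited 2 tables, without and with AA, of FPKM for 11033 coding sequence groups; their FPKM columns are headed log10 but hold linear FPKM. Columns of the authors' own comparisons (fold changes, test statistics, p-values, q-values and calls) were not used. FPKM were summed per gene over 9936 names, 157 genes with a failed estimate were left out and 9779 kept; 4 of the 44 genes have more than 1 group. Log2 ratios used a pseudocount of 1, which understates the change of low genes, and genes reaching 1 FPKM in 1 of the compared libraries were kept, as all 44 were. Calls used 2-fold, and 1.5-fold as a second threshold. Genes were binned in 10 deciles by mean log2 level. With 1 library per condition, no test, interval or p-value was computed, and leaving out a replicate was not possible. Duplicate removal can lower high values. Gene positions and exon overlaps are from GENCODE M21 and promoters from RefSeq; 41 of the 50 genes matched a promoter. Members, lists and rules were chosen with earlier results of these data known. Named were all members by role, those at either end of each role or past 1.5-fold in both GSK-J4 comparisons with their levels, those past 1.5-fold in both AA comparisons (0 genes), and at most 3 genes per other list past 2-fold in both. Alternatives were pseudocounts of 0.1 and 5, other filters, scalings and centring, the highest coding sequence group, and failed estimates kept. Python 3.11.15 with numpy 2.4.6 and pandas 2.3.3 was used, and the steps were tested on simulated data.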

Additional observations from a re-analysis of the deposited data

Results flagged for a closer look

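For 2 of the 44 genes the GSK-J4 ratios had opposite signs without and with AA. The ratio with AA minus that without was 0.62 on the log2 scale for *Orc2* and -0.11 for *E2f1*. For 12 genes the AA ratios had opposite signs in DMSO and in GSK-J4. The ratio in GSK-J4 minus that in DMSO was above 0 for *Orc2* (0.62), *Rfc1* (0.22), *Pcna* (0.1), *Mcm10* (0.08) and *Rfc3* (0.07). It was below 0 for *Pola2* (-0.41), *Cdt1* (-0.16), *Tk1* (-0.11), *E2f1* (-0.11), *Orc1* (-0.1), *Pold2* (-0.07) and *Gins4* (-0.01). *Pola2* and *E2f1* are sums of 2 coding sequence groups whose ratios differed. Each value is the same difference of 4 libraries, with 1 library per condition, and none of these differences was tested.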

How the results depend on the processing

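No replicate could be left out, since each condition had 1 library, and a fit with AA as a block was not run. Without AA, the median ratio of the 44 genes was -0.42 when centred on all genes, -0.31 with upper quartile scaling, -0.21 when scaled to the same total and -0.12 against the decile of like level, and with AA it was -0.42, -0.32, -0.25 and -0.11. At least 2-fold lower were 1, 0, 0 and 0 genes without AA and 2, 0, 0 and 0 with AA in the same order, and 2 without AA with a pseudocount of 5. At 1.5-fold, 22 were lower in each comparison. Below the median of all genes, which becomes that of the own decile, were 26 and 27. The role medians, averaged over both GSK-J4 comparisons and given in the same order of settings, were -0.49, -0.39, -0.30 and -0.10 for MCM2-7, -0.10, 0.0013, 0.090 and 0.095 for licensing, where the sign turned under the last 3, -0.47, -0.37, -0.28 and -0.21 for helicase activation, and -0.30, -0.19, -0.10 and 0.051 for the clamp and its loader, where the sign turned against the decile. They were -0.25, -0.15, -0.064 and -0.048 for the polymerases, -0.46, -0.36, -0.27 and -0.14 for single-strand binding and ligation, -0.77, -0.66, -0.57 and -0.37 for deoxynucleotide supply (-0.77 with the highest coding sequence group), -0.48, -0.41, -0.33 and -0.50 for the G1/S regulators (-0.50 with a pseudocount of 5) and -0.35, -0.25, -0.16 and -0.077 for chromatin assembly factor 1. Centring, scaling and the decile setting shift all or like genes together by construction; the cause of the other shifts was not tested. Upper quartile scaling moved the median of all genes to 0.08 and 0.07, and scaling to the same total to 0.17 and 0.14. In the other 224 cases medians moved by less than 0.1 and counts stayed within 1.5 times, among them the genes below the median of all genes, 34 and 35 of 44 and 43 with a filter of 5 FPKM. The ratios of *Ccne1*, *Ccnd3*, *Tk1*, *Pold2* and *Ccnd1* kept their sign under every setting, whereas 7 of the 44 genes were above 0 in both comparisons with upper quartile scaling and 10 when scaled to the same total. The unknown depth limits *Orc2* and *E2f2*, the least expressed genes, most.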
